A study of Homo sapiens with 10 samples.

Results

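The mitotic G2/M genes described here are 38 genes whose products carry cells from G2 through mitosis, from cyclin B and its kinase to the proteins that divide the cell. They were listed by name, from their known roles, with earlier results of these data known. Their rows were taken from a table of 62750 gene IDs. All 38 had enough reads to be tested, among 15740 tested genes. The question was how their messages changed when endometriotic epithelial cells met the inflammatory cytokine IL1β, with or without compounds described as inhibitors of JNK, a stress-activated kinase that phosphorylates JUN.

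The cells were 12Z, an established line of human epithelial cells from peritoneal endometriosis, immortalized with a viral large T antigen. Cells grown in 10% serum were starved overnight in 2% charcoal-stripped serum and pre-treated for 30 min with DMSO or a compound. The vehicle group then received no IL1β, and the other groups received 10 ng/ml IL1β for 6 h. Along with IL1β, these groups had been given DMSO, CDD-2728 at a dose of 1 or of 10 µM, or CDD-3013 at 1 µM. No group had a compound without IL1β, and all groups shared the starvation. Each of the 5 groups had 2 poly(A) RNA libraries. Since 1 cell line was used and nothing states that the 2 libraries of a group came from separate cultures, p-values measure the spread between these libraries, which may be technical. The RNA came from unsorted cultures, so fewer cells in G2 or mitosis and less RNA per such cell cannot be told apart.

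Entry into mitosis is driven by CDK1 bound to cyclin B, after CDC25 phosphatases remove the inhibitory phosphates that WEE1 and PKMYT1 put there. Aurora and polo-like kinases then build the spindle, the kinetochore and checkpoint proteins hold anaphase until chromosomes are attached, and CDC20 and UBE2C direct the anaphase-promoting complex (APC/C) to destroy securin and cyclin B. The genes are transcribed together late in the cycle. In resting and early cycling cells the DREAM complex, made of the MuvB core with E2F4 and the pocket proteins RBL1 and RBL2, represses them. Later MuvB joins MYBL2 (B-MYB) and then FOXM1 to activate them, and the MuvB subunit LIN54 binds a short element, the cell cycle genes homology region (CHR). The factor NF-Y binds CCAAT boxes in the same promoters.

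The promoters show these elements. RefSeq windows (GRCh38.p14) running from 250 bases before to 50 bases after a start site were found for 32 of the 38 genes. Both strands were searched for the letters of the CHR, which are TTTGAA. A variant of the element was also searched, spelled TTCGAA, as was the box bound by NF-Y, spelled CCAAT. The CHR lay in a window of 22 of the 32 genes (68.8%) against 18.2% of 27305 genes in the same table, and the CCAAT box lay in 25 (78.1%) against 39.7%. Both stood in 18 genes (56.2%) against 7.26% of all genes, and the variant in 3 (9.38%) against 1.82%. Genes can have several windows; counted by window, the CHR was in 15.2% of 35116. Among 29 genes of DNA replication and the G1/S step, which act earlier in the cycle, the CHR was found in 2 and the CCAAT box in 20. A match is a run of letters, not a shown binding site.

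The upstream part of the window is printed for 6 genes on which the results turn, 5′ to 3′ on the gene's strand, with the CHR, its variant and the CCAAT box (or their reverse complements) in capitals. CCNB1 (chr5:69166900-69167149) and CDC20 (chr1:43358731-43358980) fell with 10 µM CDD-2728 and rose with CDD-3013 in the main fit. That fall of CCNB1 kept its call in 5 of 13 alternative settings of the test. The rise of CDC20 lost its call in a fit with offsets for transcript length and GC content. PLK1 (chr16:23678639-23678888) has a CCAAT box upstream of a CHR, and CDK1 (chr10:60778081-60778330, its first listed start) is the kinase itself. CDC25B (chr20:3796060-3796309, the start whose window has the variant) was the member that rose in every inhibitor arm, and ANLN (chr7:36389612-36389861) the well-counted member with the largest fall against IL1β alone at 10 µM. The first window of CDC25B holds none of the 3 motifs, and in ANLN a CHR on the other strand adjoins one on the gene's strand.
CCNB1: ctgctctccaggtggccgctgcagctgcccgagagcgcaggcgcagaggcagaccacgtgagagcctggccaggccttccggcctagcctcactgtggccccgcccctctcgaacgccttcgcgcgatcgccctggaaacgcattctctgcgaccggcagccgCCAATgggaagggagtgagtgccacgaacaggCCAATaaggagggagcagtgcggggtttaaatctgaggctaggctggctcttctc
CDC20: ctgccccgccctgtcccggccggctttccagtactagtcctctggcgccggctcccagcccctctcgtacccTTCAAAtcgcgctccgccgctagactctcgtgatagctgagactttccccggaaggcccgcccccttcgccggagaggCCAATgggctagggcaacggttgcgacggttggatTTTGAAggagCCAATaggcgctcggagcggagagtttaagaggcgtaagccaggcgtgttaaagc
PLK1: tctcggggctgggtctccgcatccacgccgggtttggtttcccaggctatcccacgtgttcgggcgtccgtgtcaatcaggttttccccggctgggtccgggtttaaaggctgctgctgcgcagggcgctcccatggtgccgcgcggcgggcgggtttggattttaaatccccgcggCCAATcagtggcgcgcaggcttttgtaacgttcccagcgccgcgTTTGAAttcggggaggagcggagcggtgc
CDK1: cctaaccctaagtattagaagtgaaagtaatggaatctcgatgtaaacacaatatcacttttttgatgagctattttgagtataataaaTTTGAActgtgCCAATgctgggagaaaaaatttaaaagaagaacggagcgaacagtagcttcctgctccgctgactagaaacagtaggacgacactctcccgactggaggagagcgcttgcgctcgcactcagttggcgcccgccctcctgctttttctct
CDC25B: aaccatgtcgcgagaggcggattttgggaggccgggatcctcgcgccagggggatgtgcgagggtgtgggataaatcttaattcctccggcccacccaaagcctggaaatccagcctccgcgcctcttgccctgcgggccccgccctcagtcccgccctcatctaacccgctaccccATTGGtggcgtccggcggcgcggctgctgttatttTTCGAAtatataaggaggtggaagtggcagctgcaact
ANLN: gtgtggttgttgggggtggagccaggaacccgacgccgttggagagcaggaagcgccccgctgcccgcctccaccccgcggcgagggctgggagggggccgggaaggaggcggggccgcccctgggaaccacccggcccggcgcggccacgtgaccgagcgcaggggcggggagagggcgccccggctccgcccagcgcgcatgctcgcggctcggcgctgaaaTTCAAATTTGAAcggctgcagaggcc

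Further matches show how the CHR recurs across roles, with 12 bases on either side of the capitals: a cyclin (CCNB2, chr15:59105105-59105134), a phosphatase (CDC25C, chr5:138331817-138331846), a cytokinesis motor (KIF23, chr15:69414282-69414311) and a chromosome surface protein (MKI67, chr10:128126453-128126482). In BUB1 (chr2:110678045-110678074) the match is the variant.
CCNB2: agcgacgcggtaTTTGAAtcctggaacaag
CDC25C: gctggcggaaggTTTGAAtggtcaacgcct
KIF23: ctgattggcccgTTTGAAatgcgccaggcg
MKI67: ttagcgccagaaTTTGAAtcttcgttttcg
BUB1: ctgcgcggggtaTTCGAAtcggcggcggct

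Levels are given as CPM (counts of a gene relative to the library's total, scaled with TMM factors), and differences as log2 fold changes ± SE. A gene is called changed, and written as having risen or fallen, where edgeR's quasi-likelihood test gave an adjusted p under 0.05. Where libraries of 2 groups are said not to overlap for single genes, those genes were already called. Such statements add no support to the call, and the share of all tested genes so separated is not given here. Libraries held 16312600 to 19479416 counts. The summed level of the 38 genes was 7047 and 6929.8 CPM in the vehicle libraries, 6858 and 6955 CPM with IL1β, 7268 and 7102 CPM with 1 µM CDD-2728, 6189 and 6012 CPM with 10 µM CDD-2728, and 7188 and 7069.9 CPM with CDD-3013. Both libraries of the 10 µM group were thus below the 8 others. Ribosomal protein genes took 2.81% to 3.46% of counts in the vehicle and IL1β libraries, 3% to 3.71% in those of CDD-2728 and 4.01% and 4.75% in those of CDD-3013. The line is labelled epithelial: of 6 epithelial markers KRT8 was at a mean of 6772 CPM, but EPCAM was at 0.073 CPM, while the stromal gene COL1A1 was at 2800 CPM. The summed epithelial markers were 9005 and 9120 CPM with IL1β and 12260 and 13470 CPM with CDD-3013, and 8115 to 10650 CPM in the other 3 groups. At 10 µM CDD-2728 other marker sums differed from IL1β alone: mesothelial markers were at 464 and 505 CPM against 634.5 and 641.7 CPM, stromal markers at 3052 and 3203 CPM (below the 8 other libraries) against 4196 and 4242 CPM, and endothelial markers at 53.3 and 46.7 CPM (above the 8 others) against 16.2 and 17.5 CPM, where PECAM1 was at a mean of 0.33 CPM. Single markers in that comparison went both ways, where 31.5% of all tested genes were called. Of 4 mesothelial markers 2 rose and 2 fell, and of 5 stromal markers 2 rose and 2 fell. LRRN4 (a mean of 464.5 CPM) and COL1A1 were the highest of those lists. Of 4 endothelial markers 1 rose, and KDR, at a mean of 28.25 CPM, held most of that sum. Of the immune markers CD3E was at 0 in every library and CD14 at a mean of 18.9 CPM. The part of these shares and sums in the results was not tested.

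By mean level per kb of exon, MYBL2 stood highest (250.4 CPM per kb) and CENPE (7.58 CPM per kb) lowest of the 36 genes with at least 1000 reads in all. On the same scale UBE2C was at 187, CDC20 at 145 and CCNB1 at 125 CPM per kb, above CDK1 at 33.8, PLK1 at 39.6 and MKI67 at 37.9 CPM per kb. Per kb of the longest transcript the order differed, with UBE2C at 263 and MYBL2 at 257 CPM per kb, and CDK1 at 68.2, PLK1 at 45.6 and MKI67 at 38.3 CPM per kb. The 2 other genes had few reads. NUSAP1 (a microtubule bundler of the spindle) had 245 reads over the 10 libraries and PRC1 (which crosslinks the microtubules of the midzone) 532. Each overlaps another annotated protein-coding gene on its own strand, and the one over PRC1 had 2335 reads, so counts of both are uncertain and their values are given for completeness.

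**Figure D1:**
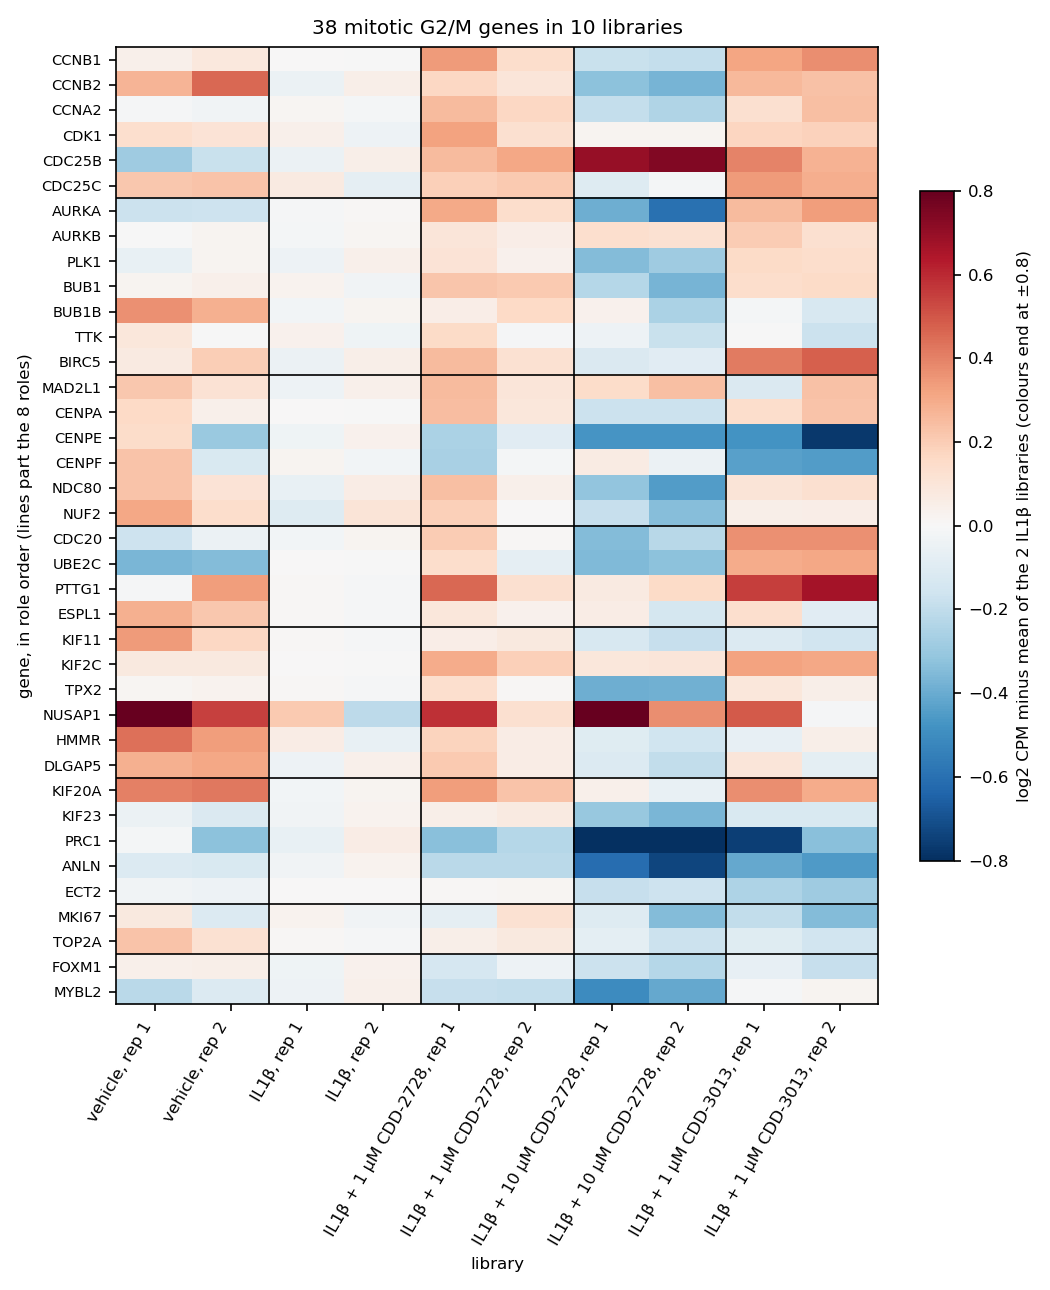
Each row is 1 of the 38 genes, in role order, and each column 1 of the 10 libraries. Colour is log2 CPM minus the mean of the 2 IL1β libraries, ending at 0.8 either way. Both 10 µM CDD-2728 libraries are mostly blue with CDC25B red, and both CDD-3013 libraries are red for CCNB1, BIRC5, CDC20 and PTTG1 and blue for CENPE, CENPF and ANLN.

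IL1β against vehicle asked how the cytokine alone acted on these genes within 6 h. Of the 38 genes 2 rose (5.26%), 8 fell (21.1%) and 28 did not pass the test, with a median difference of -0.06. Of all tested genes 32.6% were called, 17.6% higher and 15% lower (median -0.01). The share of members called, 26.3%, was thus below that of all genes. Genes that fell were CCNB2, BUB1B, ESPL1, KIF11, HMMR, DLGAP5, KIF20A and TOP2A, and the risen ones CDC25B and UBE2C. JUN, the substrate and target of the JNK pathway, rose by 1.18 ± 0.07 (edgeR, adjusted p = 2.85e-12).

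KIF20A, the kinesin that carries the chromosomal passenger complex to the midzone, was at 193 and 196 CPM in the vehicle libraries and 144 and 148 CPM with IL1β. It fell by 0.41 ± 0.07 (edgeR, adjusted p = 3.6e-05), and its groups did not overlap. HMMR, a spindle protein that also binds hyaluronan, went from 115 and 107 CPM to 88.1 and 81.1 CPM. HMMR fell by 0.39 ± 0.08 (edgeR, adjusted p = 0.000312). Cyclin B2 (CCNB2) was at 104 and 119 CPM and then 83.4 and 89.2 CPM, and fell by 0.37 ± 0.08 (edgeR, adjusted p = 0.000482). These 3 falls kept their call under every one of the 13 alternative settings tried. The checkpoint kinase BUB1B fell by 0.33 ± 0.08 (edgeR, adjusted p = 0.00363), and the spindle protein DLGAP5 fell by 0.30 ± 0.08 (edgeR, adjusted p = 0.00824). KIF11, the motor that pushes spindle poles apart, fell by 0.26 ± 0.07 (edgeR, adjusted p = 0.00612). Separase (ESPL1), the protease that cuts cohesin at anaphase, fell by 0.25 ± 0.08 (edgeR, adjusted p = 0.0159), and topoisomerase II alpha (TOP2A), which untangles sister chromosomes, fell by 0.18 ± 0.07 (edgeR, adjusted p = 0.0442). In all 5 of these genes both IL1β libraries lay below both vehicle libraries, and each lost its call when at least 1 library was left out.

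UBE2C, the ubiquitin-conjugating enzyme of the APC/C, was at 193 and 196 CPM without and 249 and 249 CPM with IL1β. It rose by 0.36 ± 0.07 (edgeR, adjusted p = 0.000276), 1.28-fold, with no overlap. CDC25B, the phosphatase that first activates CDK1 in late G2, went from 253 and 273 CPM to 299 and 319 CPM and rose by 0.23 ± 0.07 (edgeR, adjusted p = 0.0107). The central pair did not pass the test: CCNB1 was at 306 and 315 CPM and 298 and 298 CPM, a difference of -0.06 ± 0.07 (edgeR, adjusted p = 0.544), and CDK1 at 135 and 133 CPM and 127 and 119 CPM, -0.12 ± 0.07 (edgeR, adjusted p = 0.199). Nor did PLK1, the polo-like kinase, at 0.02 ± 0.07 (edgeR, adjusted p = 0.874), the proliferation marker MKI67 at 0.01 ± 0.09 (edgeR, adjusted p = 0.931), FOXM1 at -0.04 ± 0.07 (edgeR, adjusted p = 0.658) or AURKA at 0.17 ± 0.07 (edgeR, adjusted p = 0.0808). The count of falls depended on scaling: by library totals, which moved the median of all genes to -0.184, 23 members were called lower in place of 8 and 1 higher in place of 2. The count of falls was smaller when any 1 library of these groups was left out, and that of rises without IL1β replicate 2. Calls over all tested genes were fewer in these fits too.

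At 10 µM, CDD-2728 lowered cyclins, kinases, cytokinesis genes and both transcription factors, and raised CDC25B. Against IL1β alone 17 of 38 genes fell and 1 rose, with a median of -0.17, while 31.5% of all tested genes were called, 15.9% lower and 15.6% higher (median 0.01). Falls of the 17 genes ran from 0.18 for ECT2 to 1.25 for the thinly counted PRC1. By role, 3 of 6 cyclins, CDK1 and phosphatases fell, 3 of the 7 in the group of kinases and BIRC5, 2 of 6 kinetochore and checkpoint genes, 2 of 4 anaphase genes, 1 of 6 motors and spindle proteins, 4 of 5 cytokinesis genes and both transcription factors. Neither MKI67 nor TOP2A passed the test, though MKI67 was called lower in 5 of 13 alternative settings. With length and GC offsets MKI67 was at -0.15 (edgeR, adjusted p = 0.0415) and MAD2L1 was called higher at 0.26 (edgeR, adjusted p = 0.0414). JUN fell by 1.96 ± 0.07 (edgeR, adjusted p = 3.88e-15) in the same arm.

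Among the cyclins CCNB2 was at 83.4 and 89.2 CPM with IL1β alone and 68.5 and 66.6 CPM with the compound, and fell by 0.35 ± 0.08 (edgeR, adjusted p = 0.00114). CCNA2 (cyclin A2, which acts from S phase to early mitosis) was at 130.3 and 127 CPM and 113 and 109 CPM and fell by 0.22 ± 0.07 (edgeR, adjusted p = 0.0166). CCNB1 moved from 298 and 298 CPM to 263 and 261 CPM and fell by 0.18 ± 0.07 (edgeR, adjusted p = 0.0465). In all 3 the groups did not overlap, yet the call of CCNB1 stood in 5 of 13 alternative settings and that of CCNA2 in 8. CDK1 itself, at 125 and 125 CPM, differed by 0.02 ± 0.07 (edgeR, adjusted p = 0.855), an interval (95%) of -0.13 to 0.17. CDC25C, the phosphatase of mitotic entry proper, differed by -0.06 ± 0.10 (edgeR, adjusted p = 0.665). CDC25B ran the other way, from 299 and 319 CPM to 502 and 516 CPM. It rose by 0.72 ± 0.07 (edgeR, adjusted p = 3.18e-08), 1.65-fold, and both its libraries were above every other library of the study.

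Of the kinases AURKA, which matures the spindle poles and activates PLK1, was at 210.0 and 212 CPM and then 161 and 139 CPM. It fell by 0.49 ± 0.07 (edgeR, adjusted p = 2.05e-05), 1.41-fold lower. PLK1 was at 186 and 196 CPM and then 149.7 and 157 CPM, and fell by 0.32 ± 0.07 (edgeR, adjusted p = 0.000739). The checkpoint kinase BUB1 fell by 0.30 ± 0.07 (edgeR, adjusted p = 0.00219). AURKB, the kinase of the chromosomal passenger complex, gave 0.13 ± 0.07 (edgeR, adjusted p = 0.142), and its partner BIRC5 (survivin) -0.10 ± 0.07 (edgeR, adjusted p = 0.281). The difference between AURKA and AURKB was not tested. TPX2, the spindle protein that binds and activates AURKA, went from 298 and 293 CPM to 225 and 227 CPM and fell by 0.39 ± 0.07 (edgeR, adjusted p = 7.36e-05). At the kinetochore NDC80, which grips microtubule ends, fell by 0.38 ± 0.09 (edgeR, adjusted p = 0.00201), and the motor CENPE fell by 0.47 ± 0.12 (edgeR, adjusted p = 0.00956). NUF2, which pairs with NDC80, gave -0.26 ± 0.10 (edgeR, adjusted p = 0.0585).

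The APC/C activator CDC20 and the APC/C ubiquitin-conjugating enzyme UBE2C both fell. CDC20 was at 284 and 293 CPM and then 227 and 248 CPM and fell by 0.28 ± 0.07 (edgeR, adjusted p = 0.00485). UBE2C, at 249 and 249 CPM and then 195 and 198 CPM, fell by 0.34 ± 0.07 (edgeR, adjusted p = 0.000575), which placed it beside the vehicle libraries. The other anaphase genes did not pass: securin (PTTG1), the inhibitor of separase, gave 0.11 ± 0.11 (edgeR, adjusted p = 0.47) and ESPL1 -0.04 ± 0.08 (edgeR, adjusted p = 0.761). Cytokinesis held the largest falls. ANLN (anillin, the scaffold of the contractile ring) was at 419 and 437 CPM and 281 and 257 CPM, and fell by 0.67 ± 0.07 (edgeR, adjusted p = 4.81e-08), 1.59-fold lower. KIF23, the motor of centralspindlin, went from 213 and 221 CPM to 176 and 168 CPM and fell by 0.33 ± 0.06 (edgeR, adjusted p = 0.0003). ECT2, the exchange factor that turns on RHOA at the cleavage site, fell by 0.18 ± 0.06 (edgeR, adjusted p = 0.0358), a call kept in 4 of 13 alternative settings. PRC1 was at 3.75 and 4.08 CPM and 1.66 and 1.61 CPM and fell by 1.25 ± 0.27 (edgeR, adjusted p = 0.000727), on few reads. KIF20A gave -0.01 ± 0.07 (edgeR, adjusted p = 0.936).

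Both transcription factors that switch on these promoters fell. MYBL2, the most abundant member by CPM, was at 748 and 795 CPM and 544 and 581 CPM and fell by 0.46 ± 0.07 (edgeR, adjusted p = 1.63e-05). FOXM1 was at 234 and 245 CPM and 213 and 205 CPM and fell by 0.20 ± 0.07 (edgeR, adjusted p = 0.0253), and its call stood in 8 of 13 alternative settings. MKI67 was at 528 and 506 CPM and 481 and 407 CPM, -0.22 ± 0.09 (edgeR, adjusted p = 0.0621), and TOP2A at 555 and 548 CPM and 521 and 490.0 CPM, -0.12 ± 0.07 (edgeR, adjusted p = 0.164). Of the 17 falls, 10 kept their call in every alternative setting run (PLK1, AURKA, ANLN, MYBL2, TPX2, KIF23, UBE2C, PRC1, CCNB2 and NDC80), as did the rise of CDC25B. The count of falls was smaller when any 1 library of these groups was left out, as were the calls over all tested genes.

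**Figure D2:**
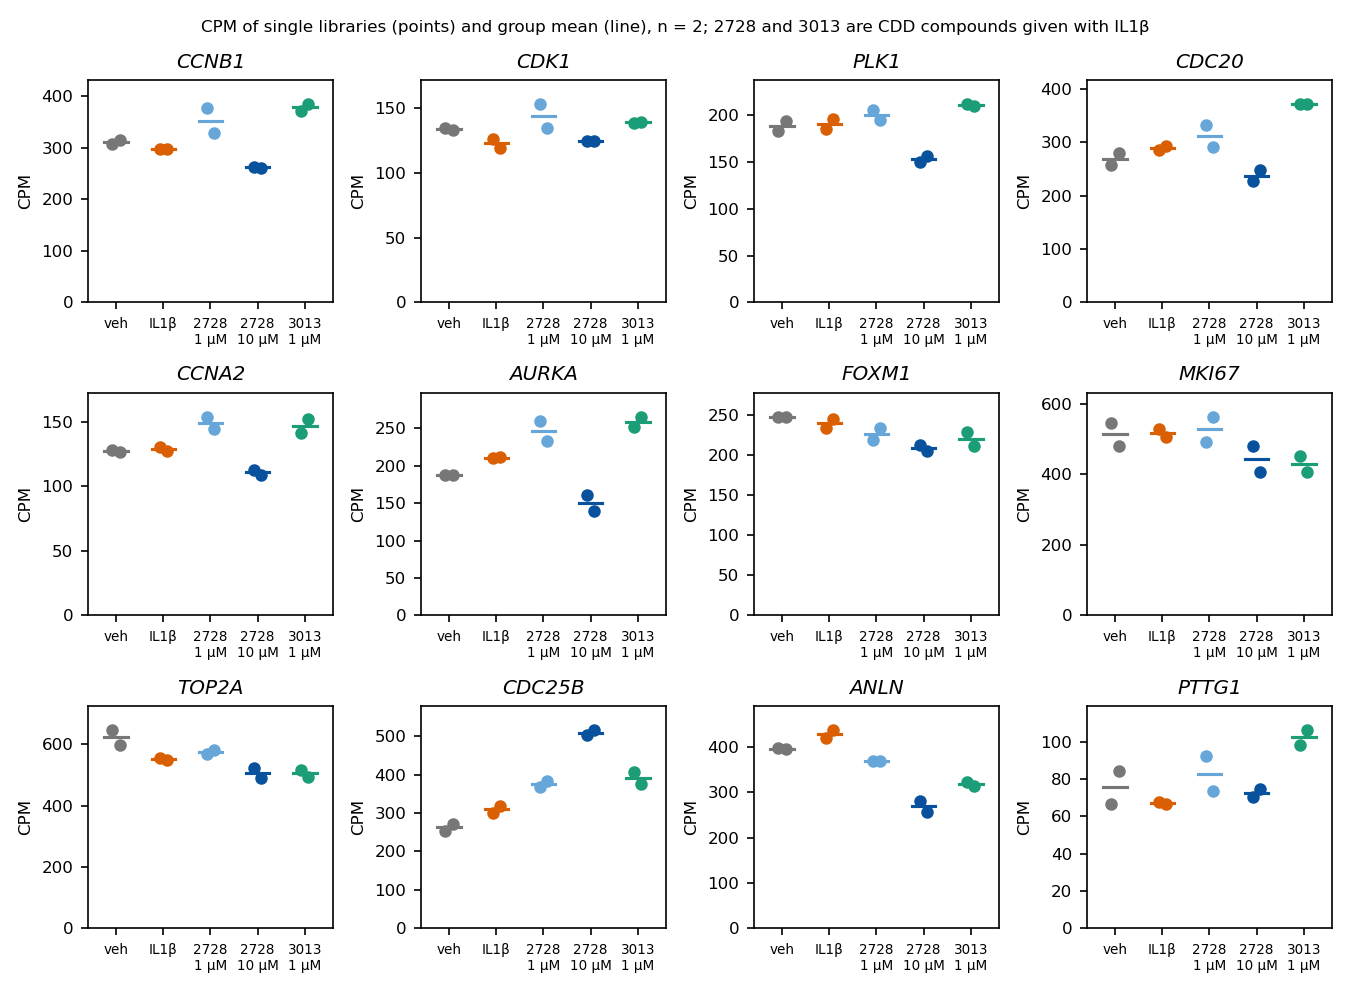
Points are single libraries and lines group means (n = 2) of CPM for 12 genes, with axes starting at 0. In the 10 µM CDD-2728 group AURKA, PLK1 and ANLN lie below all 3 other IL1β groups and CDC25B above them, while CDC20 and PTTG1 are highest in the CDD-3013 group.

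The comparison of 10 with 1 µM CDD-2728, which does not use the IL1β-only libraries, gave the largest count: 26 of 38 genes were lower at 10 µM and 1 was higher, with a median of -0.28. Of all tested genes 27.1% were called, 13.8% lower and 13.3% higher (median 0.01). Of the cyclin group 5 of 6 were called lower, all but CDC25B. CCNB1 was at 377 and 328 CPM at 1 µM and 263 and 261 CPM at 10 µM, and fell by 0.43 ± 0.07 (edgeR, adjusted p = 8.62e-05). CCNA2, at 154 and 145 CPM and 113 and 109 CPM, fell by 0.43 ± 0.07 (edgeR, adjusted p = 5.88e-05). CCNB2 fell by 0.49 ± 0.08 (edgeR, adjusted p = 6.28e-05), whereas CDK1 fell by 0.21 ± 0.07 (edgeR, adjusted p = 0.0323) and kept its call in 5 of 13 alternative settings. CDC25C fell by 0.26 ± 0.09 (edgeR, adjusted p = 0.0455), a call that stood in 1 of 13 settings. CDC25B, at 368 and 383 CPM and 502 and 516 CPM, rose by 0.44 ± 0.07 (edgeR, adjusted p = 4.9e-05).

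AURKA showed the largest drop among well-counted members, from 260.1 and 233 CPM to 161 and 139 CPM. It fell by 0.72 ± 0.07 (edgeR, adjusted p = 2.66e-07), 1.64-fold lower. PLK1, at 205 and 195 CPM and 149.7 and 157 CPM, fell by 0.39 ± 0.07 (edgeR, adjusted p = 0.00014), and BUB1 fell by 0.51 ± 0.07 (edgeR, adjusted p = 1.13e-05). In these kinases both libraries of the higher dose were below both of the lower. BIRC5 fell by 0.29 ± 0.07 (edgeR, adjusted p = 0.00331) as well, though AURKB, BUB1B and TTK (a checkpoint kinase) did not pass. The kinetochore genes NDC80 and NUF2 fell by 0.53 ± 0.09 (edgeR, adjusted p = 0.000119) and by 0.36 ± 0.10 (edgeR, adjusted p = 0.0117), and CENPA, the centromeric histone, fell by 0.34 ± 0.09 (edgeR, adjusted p = 0.00876). CDC20, at 333 and 291 CPM and 227 and 248 CPM, fell by 0.39 ± 0.07 (edgeR, adjusted p = 0.000355), and UBE2C fell by 0.38 ± 0.07 (edgeR, adjusted p = 0.000296).

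All 5 cytokinesis genes were lower at the higher dose: ANLN fell by 0.45 ± 0.07 (edgeR, adjusted p = 2.26e-05), KIF23 fell by 0.39 ± 0.06 (edgeR, adjusted p = 8e-05), KIF20A fell by 0.29 ± 0.07 (edgeR, adjusted p = 0.00236), ECT2 fell by 0.19 ± 0.06 (edgeR, adjusted p = 0.0289) and PRC1 fell by 0.97 ± 0.27 (edgeR, adjusted p = 0.00923). Of motors and spindle proteins TPX2 fell by 0.46 ± 0.07 (edgeR, adjusted p = 1.73e-05), and DLGAP5, HMMR and KIF11 fell by 0.22 to 0.29. MKI67 (from 491 and 563 CPM to 481 and 407 CPM) fell by 0.25 ± 0.09 (edgeR, adjusted p = 0.0421) and TOP2A fell by 0.19 ± 0.07 (edgeR, adjusted p = 0.0414). MYBL2 fell by 0.27 ± 0.07 (edgeR, adjusted p = 0.00435), while FOXM1, at 218 and 233 CPM and 213 and 205 CPM, gave -0.11 ± 0.07 (edgeR, adjusted p = 0.223). Calls of 13 falls and of CDC25B held in every alternative setting. Among the other falls, the call of ECT2 stood in 5 of 13 settings, that of TOP2A in 6 and that of MKI67 in 8. With length and GC offsets ECT2 was not called, and PRC1 rests on few reads. The count of falls was smaller without 1 µM CDD-2728 replicate 1 and without 10 µM CDD-2728 replicate 2, as were the calls over all tested genes.

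At 1 µM, CDD-2728 raised 4 of the 38 genes against IL1β alone (median 0.11), in an arm where 4.59% of all tested genes were called, 2.03% higher and 2.57% lower (median 0). Members called lower numbered 0 by edgeR, with 2 at an unadjusted p under 0.05 and 1 by DESeq2. The 4 were KIF20A, CDC25B, KIF2C and CCNB1. KIF20A, at 144 and 148 CPM with IL1β alone and 184 and 171 CPM with the compound, rose by 0.28 ± 0.07 (edgeR, adjusted p = 0.0142). CDC25B rose by 0.28 ± 0.07 (edgeR, adjusted p = 0.0174), and KIF2C, a kinesin that shortens microtubules at the centromere, rose by 0.25 ± 0.06 (edgeR, adjusted p = 0.0267). CCNB1 was at 298 and 298 CPM and 377 and 328 CPM, and rose by 0.24 ± 0.07 (edgeR, adjusted p = 0.0453). In each of the 4 both libraries of the arm were above both IL1β libraries.

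The 4 calls at 1 µM hung on single libraries and were lost when either IL1β library was left out. Fewer members were called without 1 µM CDD-2728 replicate 1, and more without replicate 2. Calls over all tested genes moved the same way in each of these fits. CDK1 was at 153 and 135 CPM, 0.23 ± 0.07 (edgeR, adjusted p = 0.0687). For PLK1 (205 and 195 CPM) the difference was 0.07 ± 0.07 (edgeR, adjusted p = 0.613), and for CDC20 (333 and 291 CPM) 0.11 ± 0.07 (edgeR, adjusted p = 0.449). AURKA (260.1 and 233 CPM) gave 0.22 ± 0.07 (edgeR, adjusted p = 0.086) and CCNA2 0.21 ± 0.07 (edgeR, adjusted p = 0.0742). FOXM1 (218 and 233 CPM) gave -0.09 ± 0.07 (edgeR, adjusted p = 0.529), MKI67 0.03 ± 0.09 (edgeR, adjusted p = 0.909) and TOP2A 0.06 ± 0.07 (edgeR, adjusted p = 0.68). Differences were above 0 in 32 of the 38 genes, with ANLN, MYBL2, FOXM1, CENPE, CENPF and PRC1 below 0. JUN fell by 0.92 ± 0.07 (edgeR, adjusted p = 1.37e-08) at this dose.

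CDD-3013 at 1 µM gave changes of both signs. Against IL1β alone 12 of 38 genes rose (31.6%) and 5 fell (13.2%), with a median of 0.09. Of all tested genes 36.4% were called, 19% higher and 17.3% lower (median -0.01), so the share of falls was below that of all genes. The rises were CCNB1, CCNB2, CCNA2, CDC25B, CDC25C, AURKA, BIRC5, CDC20, UBE2C, PTTG1, KIF2C and KIF20A, whose longest transcripts are at most 3.6 kb. The falls were CENPE, CENPF, ANLN, ECT2 and MKI67, all with transcripts over 4 kb. By role, 5 of 6 cyclins, CDK1 and phosphatases and 3 of 4 anaphase genes rose, against 2 of the 7 in the group of kinases and BIRC5, 1 of 6 motors and spindle proteins and 1 of 5 cytokinesis genes. Ribosomal protein shares and summed epithelial markers, given above, were also highest in both libraries of this arm, and their part in these differences was not tested. JUN fell by 1.31 ± 0.07 (edgeR, adjusted p = 2.23e-11) in this arm.

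PTTG1 was at 67.4 and 66.6 CPM with IL1β alone and 98.2 and 106 CPM with CDD-3013. It rose by 0.61 ± 0.11 (edgeR, adjusted p = 0.000285), 1.53-fold, with no overlap. CDC20, at 284 and 293 CPM and then 371 and 372 CPM, rose by 0.36 ± 0.07 (edgeR, adjusted p = 0.000463), and UBE2C, at 249 and 249 CPM and then 306 and 308 CPM, rose by 0.30 ± 0.07 (edgeR, adjusted p = 0.00135). ESPL1, the longest transcript of the anaphase group, gave 0.03 ± 0.08 (edgeR, adjusted p = 0.84). BIRC5 went from 163 and 174 CPM to 224 and 235 CPM and rose by 0.45 ± 0.07 (edgeR, adjusted p = 3.91e-05), the smallest adjusted p among the rises. AURKA, at 252 and 266 CPM, rose by 0.29 ± 0.07 (edgeR, adjusted p = 0.00306). Its relatives did not pass, with 0.17 ± 0.07 (edgeR, adjusted p = 0.0518) for AURKB and 0.15 ± 0.07 (edgeR, adjusted p = 0.0788) for PLK1 (212 and 210.3 CPM).

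CCNB1 was at 371 and 385 CPM and rose by 0.34 ± 0.07 (edgeR, adjusted p = 0.000479), CCNB2 rose by 0.25 ± 0.08 (edgeR, adjusted p = 0.0127) and CCNA2, at 141 and 152 CPM, rose by 0.19 ± 0.07 (edgeR, adjusted p = 0.0349). CDC25B, at 407 and 375 CPM, rose by 0.34 ± 0.07 (edgeR, adjusted p = 0.000476), and CDC25C rose by 0.31 ± 0.09 (edgeR, adjusted p = 0.0119). For CDK1, the partner of these cyclins, the libraries read 139 and 139.5 CPM, a difference of 0.18 ± 0.07 (edgeR, adjusted p = 0.0535). KIF20A rose by 0.34 ± 0.07 (edgeR, adjusted p = 0.000407), which brought it to 189.8 and 180.0 CPM, just below the vehicle libraries, and KIF2C rose by 0.31 ± 0.06 (edgeR, adjusted p = 0.000568). Both had non-overlapping groups. The arm of 10 µM CDD-2728 shares the IL1β-only libraries and has another dose, and the arms were not compared with each other. Side by side, CCNB1 had 0.34 ± 0.07 here and -0.18 ± 0.07 there, AURKA 0.29 ± 0.07 and -0.49 ± 0.07, and CDC20 0.36 ± 0.07 and -0.28 ± 0.07.

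Among the falls CENPE, the kinetochore motor that brings chromosomes to the metaphase plate, was at 83.0 and 86.7 CPM and then 60.8 and 49.7 CPM, and fell by 0.62 ± 0.13 (edgeR, adjusted p = 0.00148). CENPF, a kinetochore protein of G2 and mitosis, went from 294 and 285 CPM to 215 and 213 CPM and fell by 0.44 ± 0.10 (edgeR, adjusted p = 0.00179). ANLN was at 322 and 313 CPM and fell by 0.43 ± 0.07 (edgeR, adjusted p = 2.97e-05), ECT2 fell by 0.27 ± 0.06 (edgeR, adjusted p = 0.00212), and MKI67, at 452 and 406 CPM, fell by 0.27 ± 0.09 (edgeR, adjusted p = 0.021). In all 5 both CDD-3013 libraries lay below both IL1β libraries. TOP2A (515 and 495 CPM) gave -0.13 ± 0.07 (edgeR, adjusted p = 0.148), FOXM1 (229 and 211 CPM) -0.13 ± 0.07 (edgeR, adjusted p = 0.153) and MYBL2 0.01 ± 0.07 (edgeR, adjusted p = 0.96).

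The differences of this arm varied with transcript length. Over the 36 well-counted members, whose longest annotated transcripts run from 0.91 kb (UBE2C) to 12.68 kb (MKI67), Pearson's r between log2 fold change and log2 length was -0.74 with CDD-3013, against -0.46 with 1 µM CDD-2728, -0.03 with 10 µM CDD-2728 and -0.08 with IL1β. These are descriptions across genes measured in the same libraries, which are not independent. In the CDD-3013 arm the median was -0.2 for the 10 members over 4 kb and 0.18 for the 26 shorter ones. With offsets for transcript length and GC content fitted across all genes, r was -0.33 and the medians were 0.06 and 0.15. Then 13 members were called higher and 3 lower, and of all tested genes 2471 higher and 1761 lower (2994 and 2729 without offsets). CENPE was at -0.18 (edgeR, adjusted p = 0.144), CENPF at -0.08 (edgeR, adjusted p = 0.438), ECT2 at -0.06 (edgeR, adjusted p = 0.45) and MKI67 at 0.05 (edgeR, adjusted p = 0.579), so these 4 falls lost their call and MKI67 changed sign. ANLN stayed lower at -0.25 (edgeR, adjusted p = 0.00098), and FOXM1 (-0.24) and MYBL2 (-0.21) were called lower. Of the rises CDC20 (0.09, edgeR, adjusted p = 0.253) and CDC25C lost their call, and CDK1, BUB1 and MAD2L1 gained one. Rises of CCNB1, AURKA, BIRC5, PTTG1, KIF20A, CDC25B, KIF2C and UBE2C and the fall of ANLN held in every alternative setting. At 10 µM CDD-2728 the same offsets gave 17 lower and 2 higher, and 26 lower and 1 higher against 1 µM. Over all tested genes they gave 2785 lower and 2686 higher, and 2531 lower and 2296 higher, in that order.

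**Figure D3:**
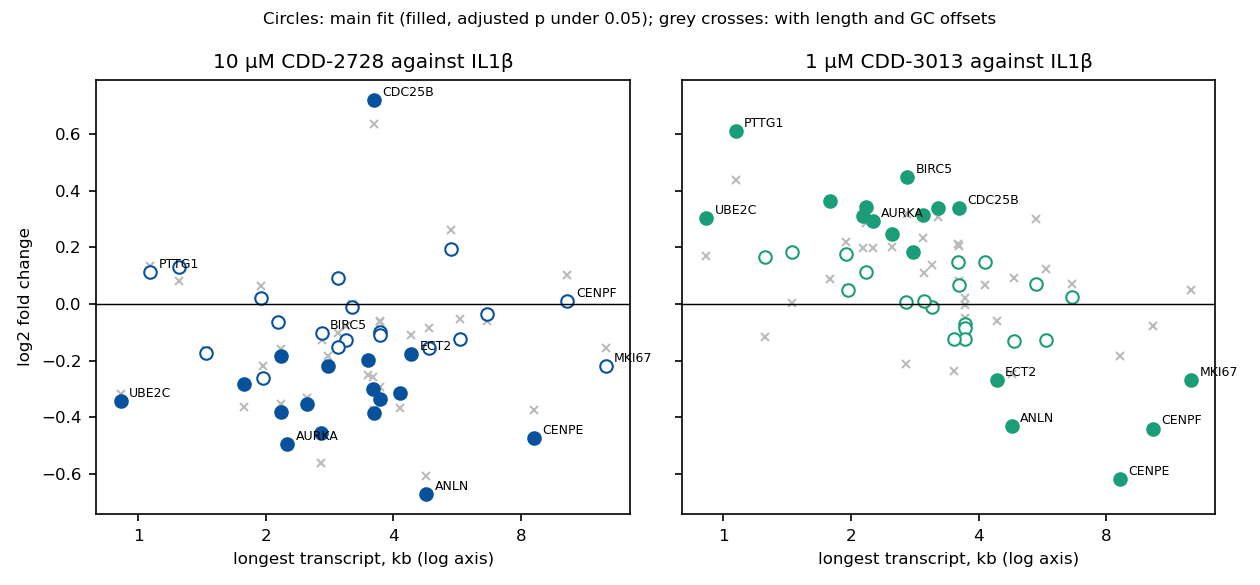
Each circle is 1 of 36 members, by its longest transcript in kb (log axis) and its log2 fold change, filled where called. Grey crosses are the values with length and GC offsets. In the right panel (CDD-3013) the circles fall from left to right (r = -0.74), and in the left (10 µM CDD-2728) they do not (r = -0.03).

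**Figure D4:**
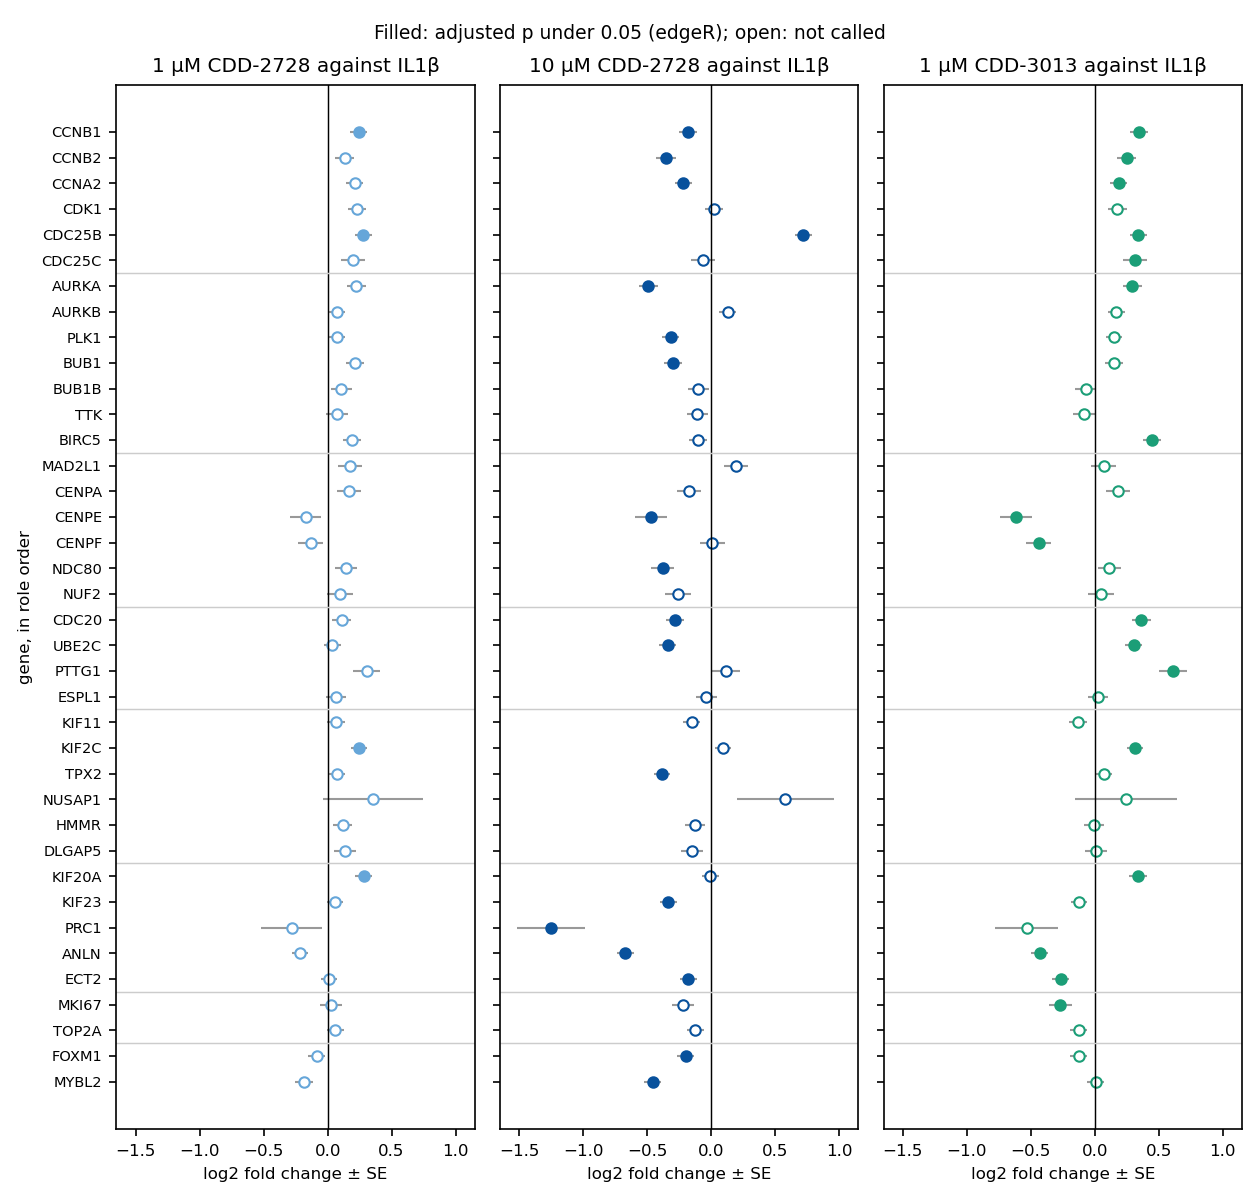
Points are log2 fold changes of the 38 genes against IL1β alone in the 3 inhibitor arms, bars are SE, and filled points were called. Filled points number 4 in the first panel, all above 0, 18 in the second, 17 of them below 0, and 17 in the third, 12 of them above 0.

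At the matched dose of 1 µM the compounds, known here by their code names, were compared directly. With CDD-3013, 3 members (7.89%) were higher than with CDD-2728: UBE2C, BIRC5 and CDC20. Lower were 6 (15.8%): ECT2, MKI67, ANLN, CENPE, CENPF and KIF23. The median was -0.04, and of all tested genes 17.9% were called, 9.85% higher and 8.01% lower (median 0). UBE2C was at 274 and 237 CPM with CDD-2728 and 306 and 308 CPM with CDD-3013, a difference of 0.27 ± 0.07 (edgeR, adjusted p = 0.00989). For BIRC5 (201 and 183 CPM, then 224 and 235 CPM) it was 0.26 ± 0.07 (edgeR, adjusted p = 0.0124), and for CDC20 0.25 ± 0.07 (edgeR, adjusted p = 0.0186). ECT2, at 143 and 143 CPM and 119.5 and 116 CPM, differed by -0.28 ± 0.06 (edgeR, adjusted p = 0.00475) and CENPE by -0.45 ± 0.13 (edgeR, adjusted p = 0.0255). For MKI67 the difference was -0.30 ± 0.09, for CENPF -0.31 ± 0.10, for ANLN -0.22 ± 0.07 and for KIF23 -0.18 ± 0.06.

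Of these 9 calls 0 remained with the length and GC offsets, and r with log2 length was -0.77 before and -0.4 after them. Calls over all 15740 tested genes also dropped with the offsets, from 1550 higher and 1261 lower to 470 and 153. The counts also hung on single libraries. Fewer members were called without 1 µM CDD-2728 replicate 2 or CDD-3013 replicate 2, and fewer were lower without CDD-3013 replicate 1. More were higher without 1 µM CDD-2728 replicate 1. Calls over all tested genes moved the same way in each of these fits. For the other 29 members no difference passed the test, which does not show that the compounds act alike. The 95% interval was -0.04 to 0.24 for CCNB1, -0.20 to 0.10 for CDK1, -0.06 to 0.21 for PLK1, -0.08 to 0.22 for AURKA, -0.17 to 0.11 for CCNA2, -0.08 to 0.20 for CDC25B and -0.18 to 0.10 for FOXM1, and for TOP2A -0.33 to -0.05, which excludes 0 before adjustment (edgeR, adjusted p = 0.0533). JUN was lower with CDD-3013 in the fit without offsets, by a difference of -0.38 ± 0.07 (edgeR, adjusted p = 0.00166). Whether this call holds with the length and GC offsets was not tested. AURKB, TTK, MAD2L1 and NUSAP1 were the 4 members called in none of the 6 comparisons. Of these the checkpoint protein MAD2L1 was at 50.5 and 53.3 CPM with IL1β alone and 57.4 and 61.2 CPM with 10 µM CDD-2728, 0.19 ± 0.10 (edgeR, adjusted p = 0.137), and TTK at 65.7 and 62.6 CPM and 62.2 and 56.8 CPM, -0.11 ± 0.09 (edgeR, adjusted p = 0.361). NUSAP1, on few reads, ran from -0.71 ± 0.37 (edgeR, adjusted p = 0.146) under IL1β to 0.58 ± 0.38 (edgeR, adjusted p = 0.258) at 10 µM CDD-2728.

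Other genes of the same machinery were read from lists chosen by role, with earlier results of these data known. They come from the same libraries and are no independent check. Beside them stand the shares of all tested genes called. These were 32.6% under IL1β, 4.59% and 31.5% at 1 and 10 µM CDD-2728, 36.4% with CDD-3013 and 27.1% between the doses. For these lists and the regulators below, CDD-3013 values come from the fit without length and GC offsets. Whether those calls hold with the offsets was not tested. Of 50 further mitotic genes, 27 fell and 1 rose at 10 µM CDD-2728 (median -0.22), among the falls RACGAP1, the centralspindlin partner of KIF23, by 0.45 ± 0.07 (edgeR, adjusted p = 1.27e-05), and the chromokinesin KIF4A by 0.52 ± 0.08 (edgeR, adjusted p = 1.31e-05). Against 1 µM, 29 of the 50 fell. CDD-3013 raised 10 and lowered 11 of them, with KNL1, a kinetochore scaffold, at -0.76 ± 0.09 (edgeR, adjusted p = 3.21e-06) and SPC24, a subunit of the NDC80 complex, at 0.60 ± 0.11 (edgeR, adjusted p = 0.000169). Under IL1β 5 rose and 10 fell, 30% called and so near the share of all genes, and at 1 µM CDD-2728 2 rose. DNA replication and G1/S genes gave other counts: of 32, 3 rose and 3 fell at 10 µM CDD-2728 (median -0.04), and 15 rose and 1 fell with CDD-3013 (median 0.17), among them MCM2, a subunit of the replicative helicase, by 0.48 ± 0.07 (edgeR, adjusted p = 8.91e-06). Of 16 APC/C genes, 2 rose and 4 fell at 10 µM CDD-2728 (37.5% called, near that of all genes), and 4 rose and 3 fell with CDD-3013 (43.8%), where UBE2S, which extends ubiquitin chains, rose by 0.72 ± 0.08 (edgeR, adjusted p = 2.26e-06).

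**Figure D5:**
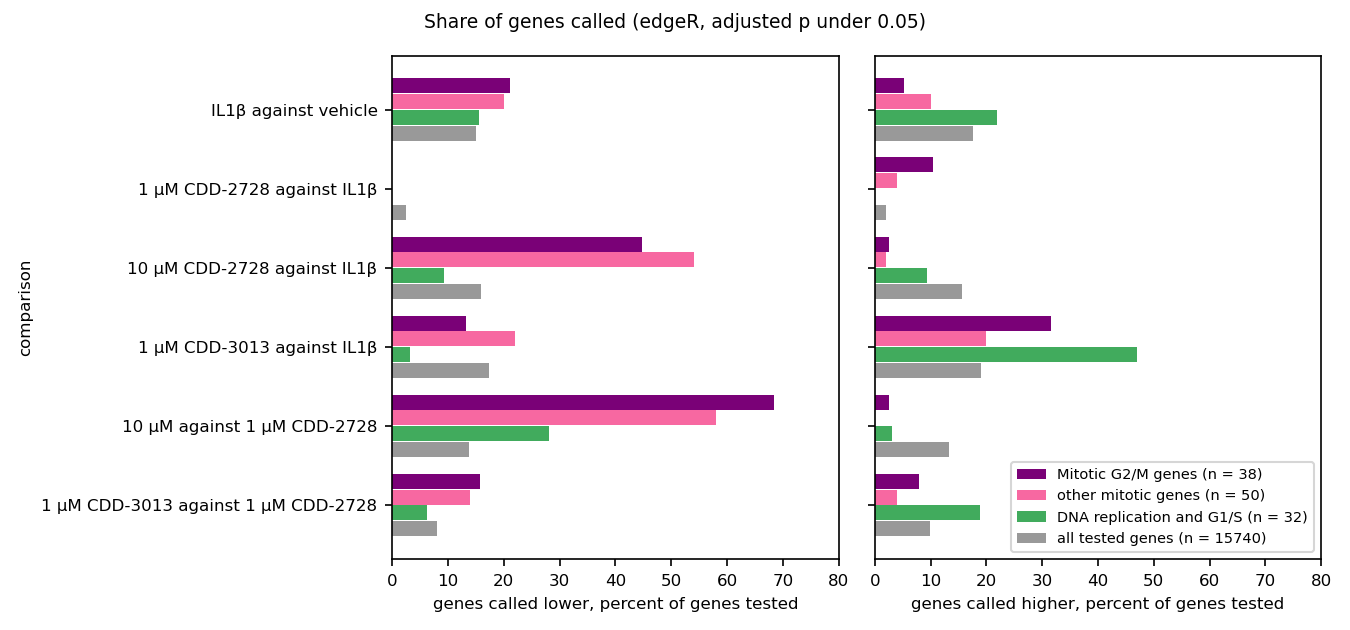
Bars start at 0 and give the percent of genes called lower (left) and higher (right) in each comparison, for the 38 mitotic G2/M genes, 50 other mitotic genes, 32 DNA replication and G1/S genes and all 15740 tested genes. The mitotic bars reach 44.7% and 54% lower at 10 µM CDD-2728 where all genes reach 15.9%, and G1/S genes reach 46.9% higher with CDD-3013. All bars are from the fit without length and GC offsets.

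Regulators of the set gave values of both signs. Their shares are read against 31.5% of all tested genes called at 10 µM CDD-2728 and 36.4% with CDD-3013. Of 15 DREAM, MuvB, E2F and NF-Y genes 2 rose and 3 fell at 10 µM CDD-2728 (33.3%, near that of all genes): TFDP2, a dimer partner of E2F factors, rose by 0.76 ± 0.10 (edgeR, adjusted p = 2.72e-06) and RBL2 rose by 0.27 ± 0.07 (edgeR, adjusted p = 0.00642), while TFDP1 fell by 0.33 ± 0.07 (edgeR, adjusted p = 0.000513), RBL1 fell by 0.31 ± 0.09 (edgeR, adjusted p = 0.0099) and E2F4 fell by 0.22 ± 0.07 (edgeR, adjusted p = 0.0195). With CDD-3013 2 rose and 3 fell (33.3%), and E2F4 rose by 0.38 ± 0.07 (edgeR, adjusted p = 0.000197). Among 17 brakes of G2 and checkpoint genes 6 rose and 4 fell at 10 µM CDD-2728 (58.8%), and 2 rose and 5 fell with CDD-3013 (41.2%). WEE1, at 58.9 and 58.2 CPM with IL1β alone, was at 50.6 and 49.6 CPM with 10 µM CDD-2728 and 47.7 and 46.7 CPM with CDD-3013. It fell by 0.23 ± 0.08 (edgeR, adjusted p = 0.0268) and fell by 0.31 ± 0.08 (edgeR, adjusted p = 0.00294) in that order. GADD45A, a stress gene that restrains CDK1, was at 49.8 and 49.7 CPM in vehicle, 109 and 114 CPM with IL1β and 49.1 and 61.1 CPM with 10 µM CDD-2728, where it fell by 1.02 ± 0.13 (edgeR, adjusted p = 2.74e-05).

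Of 8 CDK inhibitor genes, 2 rose and 1 fell at 10 µM CDD-2728 (37.5%, against 31.5% of all genes) and 4 rose and 1 fell with CDD-3013 (62.5%, against 36.4%). CDKN1A (p21) was at 62.6 and 66.8 CPM in vehicle, 135 and 126 CPM with IL1β, 135 and 127 CPM with 1 µM CDD-2728, 180.0 and 200.2 CPM with 10 µM CDD-2728 and 154 and 171 CPM with CDD-3013. It rose by 1.02 ± 0.08 (edgeR, adjusted p = 2.4e-10) under IL1β, rose by 0.54 ± 0.07 (edgeR, adjusted p = 6.98e-06) at 10 µM CDD-2728 and rose by 0.31 ± 0.08 (edgeR, adjusted p = 0.00235) with CDD-3013, and at 1 µM CDD-2728 gave 0.00 ± 0.08 (edgeR, adjusted p = 0.987). CDKN1B (p27) rose by 0.50 ± 0.07 (edgeR, adjusted p = 1.64e-05) at 10 µM CDD-2728. Of 11 tested genes of entry into G1, 2 rose and 3 fell at 10 µM CDD-2728 (45.5%) and 5 rose and 3 fell with CDD-3013 (72.7%). Among them CDK6 had the largest difference in each of the 3 comparisons given: it rose by 1.01 ± 0.10 (edgeR, adjusted p = 9.24e-08) under IL1β, fell by 1.37 ± 0.10 (edgeR, adjusted p = 4.25e-09) at 10 µM CDD-2728 and fell by 1.41 ± 0.10 (edgeR, adjusted p = 1.28e-08) with CDD-3013. MYC was at 52.8 and 54.8 CPM with IL1β and 67.8 and 75.5 CPM with 10 µM CDD-2728, where it rose by 0.41 ± 0.09 (edgeR, adjusted p = 0.000708). CCND1 (cyclin D1) was at 8.50 and 6.22 CPM with IL1β alone and passed in no comparison, with -0.10 ± 0.20 (edgeR, adjusted p = 0.75) at 10 µM CDD-2728.

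Read by promoter, genes with and without the CHR letters both moved. At 10 µM CDD-2728, 8 of the 22 members with the CHR in a window fell (median -0.16), as did 5 of the 10 without it, of which 1 rose (median -0.1), where 15.9% of all tested genes fell. Against 1 µM CDD-2728, 17 of 22 with it and 5 of 10 without it fell, against 13.8% of all genes. In the CDD-3013 arm 3 of 22 with it rose and 4 fell (median 0.02), against 6 and 1 of 10 without it (median 0.25). Of all genes 19% rose and 17.3% fell there. These counts come from the fit without length and GC offsets. With the offsets CENPF, ECT2, MKI67, CDC20 and CDC25C, all with the CHR, lost their call, as did CENPE, without it. CDK1 and MAD2L1, with it, and BUB1 and MYBL2, without it, gained a call. CDC25B, the exception at 10 µM, carries the variant at a start other than its first and no CHR in its windows. BUB1 also has the variant and no CHR, and it fell at 10 µM. Of the 3 members with the variant, 2 fell and 1 rose in that arm. Members with only the variant are counted above as without the CHR. These are counts without a test, and no match says only that the letters are not in the window.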

How the data were processed

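Poly(A) RNA was sequenced from 10 libraries of 12Z cells, 2 in each of 5 groups taken from the labels. The deposited values are raw counts per gene, which the authors made with fastp, STAR and featureCounts on hg38, per the submitters' processing notes (versions, strand setting, annotation release: not given in the sources used here). Counts were tested with edgeR 4.0.16 (R 4.3.3): filterByExpr with a minimum count of 10, TMM scaling, robust quasi-likelihood fits of all 10 libraries (5 residual degrees of freedom), and Benjamini-Hochberg adjustment over 15740 genes at 0.05. Some listed genes are not reported here.

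Members and lists were chosen with earlier results of these data known. Values per library are given for CCNB1, CDK1, PLK1, CDC20, CCNA2, AURKA, FOXM1, MKI67, TOP2A and, in each comparison, up to 8 called members of each direction with the smallest adjusted p, and of other lists up to 6 called genes, plus CDKN1A, CCND1, MYC, WEE1 and JUN. Members outside this rule were named after their values were seen. Length and GC trends were loess offsets (span 0.3), available for 97.3% of tested genes. Alternatives were other scaling and filters, DESeq2 1.42.0, a replicate block, these offsets, fits of 4 libraries, and each library left out.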

Additional observations from a re-analysis of the deposited data

How the results depend on the processing

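Counts of members called depended on the setting as follows, and the cause was not tested. Scaling by library totals gave 1 higher and 23 lower under IL1β, 1 lower at 1 µM CDD-2728, 3 higher at 10 µM CDD-2728 and 9 lower with CDD-3013. It moved the median of all genes from -0.01 to -0.184 under IL1β, and the calls over all genes were then 1623 higher and 4730 lower (2769 and 2360 with TMM), 3082 and 1911 at 10 µM CDD-2728 (2454 and 2504), and 2285 and 3548 with CDD-3013 (2994 and 2729). Without a filter 7 were higher at 1 µM CDD-2728 and 5 in CDD-3013 against CDD-2728. A filter of at least 5 CPM in 2 libraries gave 1 lower and 5 higher in these comparisons, and DESeq2 also 1 lower and 5 higher. Length and GC offsets gave 4 higher under IL1β, 2 lower at 1 µM and 2 higher at 10 µM CDD-2728, 3 lower with CDD-3013, and 0 higher and 0 lower between the compounds. Fits of the 4 libraries compared gave 4 higher under IL1β, 2 higher at 1 µM, 2 higher at 10 µM CDD-2728 and 0 higher between the compounds.

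Leaving out 1 library gave 1 to 2 higher and 3 to 6 lower under IL1β, 0 to 9 higher at 1 µM CDD-2728, 11 to 14 lower at 10 µM, 15 to 24 lower at 10 against 1 µM, and 0 to 5 higher and 0 to 4 lower between the compounds. MKI67 with CDD-3013 changed sign to 0.049 (edgeR, adjusted p = 0.579) with the offsets and to 0.048 (edgeR, adjusted p = 0.563) with block and offsets. Of 1506 recomputed single-gene values, 1232 counted as unchanged. These were called in the same direction in both fits, or uncalled in both and within 1 SE of the main value.

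The labels give the replicate numbers no meaning beyond a number. Deviations of same-numbered libraries correlated at -0.114 to 0.055 over 15740 genes, and at -0.358 to 0.485 over the 38 members, where 7 of 10 pairs of groups were above 0.1. With the replicate block, members higher and lower were 2 and 8 under IL1β, 3 and 0 at 1 µM CDD-2728, 1 and 16 at 10 µM, 12 and 5 with CDD-3013, 1 and 25 at 10 against 1 µM, and 3 and 5 between the compounds. Block and offsets together gave 4 higher under IL1β, 2 lower at 1 µM, 2 higher at 10 µM, 3 lower with CDD-3013, and 0 and 0 between the compounds. PRC1 and NUSAP1 rest on 532 and 245 reads, where every other member had at least 5285.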
